A study of Bos taurus with 9 samples.

Results

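The alpha and beta tubulin genes of bovine cells were followed through the chemical conversion of fibroblasts towards adipocyte-like cells. The 10 genes are 4 alpha tubulins (TUBA1A, TUBA1B, TUBA1C and TUBA4A) and 6 beta tubulins (TUBB, TUBB2A, TUBB2B, TUBB3, TUBB4B and TUBB6), taken by name and gene identifier from the 21512 genes of the deposited table. The wild-type cells were BEFs, fibroblasts grown from bovine ear and sampled on day 0 (AnEFs-0d in the labels), and CiADCs, chemically induced adipocyte cells sampled after 3 days (CiADCs-3d) or after 6 days (CiADCs-6d) of induction, with 3 samples in each of the 3 groups. BEFs were grown in DMEM with fetal bovine serum. CiADCs were the same fibroblasts moved to N2B27 medium with VPA at 500 µg/mL, an inhibitor of histone deacetylases, TTNPB at 1 µM, an agonist of retinoic acid receptors, and RepSox at 10 µM, an inhibitor of the TGF-beta type I receptor kinase. None of the 9 samples was kept to day 3 or day 6 without the compounds, so the effects of compounds, medium and time cannot be told apart. The samples are described as biological repeats, but it is not stated whether they came from separate animals or inductions, so the p-values measure the spread between these samples, which may be technical.

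Microtubules are hollow polymers of alpha and beta tubulin dimers that grow and shrink at their ends, carry cargo, shape the cell and build the mitotic spindle. Vertebrates have several genes for each subunit. The proteins they encode, called isotypes, are alike in most of their length and differ mainly in an acidic tail at the carboxyl end, where enzymes attach and remove amino acids. New tubulin chains are folded by the chaperonin CCT with prefoldin and a set of cofactors, and surplus dimers cause tubulin mRNAs to be degraded while they are being translated. In fibroblasts, microtubules hold the elongated shape, and the fibroblast network is known to be rebuilt when precursor cells round up into adipocytes.

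Expected counts, the reads estimated for a gene, summed to between 18509244 and 24071580 per sample. Levels are given as FPKM, the deposited value per length of transcript and size of library, which allows tubulin genes to be compared with each other, and differences as fitted log2 fold changes of the counts from edgeR. For each tubulin gene the ratio of count to FPKM, after scaling to the library, stayed within a factor of 1.004 over the 9 samples, so both measures carry the same differences. The table names most genes after matches in other species. Only 3 of the 10 symbols stood there in the same capitals, TUBB (NCBI Gene ID 615087) was listed under its mouse name Tubb5, and 6 further rows carried a member's symbol but another gene's identifier. The 10 genes were therefore matched by identifier, and those 6 rows are given separately. TUBB6 had whole-number counts in all 9 samples and TUBA4A in 7 of them. The counts of the other 8 tubulins were fractions in every sample, as happens where reads match several similar genes and are divided among them, so the split between near-identical isotypes is uncertain. The CiADCs samples numbered 1 stood apart from their groups, and leaving out both raised the genes called between the days from 3923 to 6914. CiADCs-6d replicate 1 had the highest FPKM of its group for 8 of the 10 tubulins, and CiADCs-3d replicate 1 the lowest of its group for 8, while CiADCs-6d replicate 2 was the lowest of its group for 9, so results between the days are also given without the samples numbered 1.

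BEFs held tubulin mRNA at widely different levels. TUBA1B, an alpha tubulin found in most cell types, led with a mean of 1962 ± 61.5 FPKM (SD, n = 3) and ranked 21 among all genes. TUBB, the main constitutive beta tubulin, followed at 1313 ± 58.7 FPKM with rank 37. TUBA1A, the alpha tubulin best known from the developing brain, had 556 ± 13.9 FPKM. TUBB6 and TUBB4B, both broadly expressed beta tubulins, came next with means of 368 and 349 FPKM and overlapped each other. TUBB2A and TUBA1C, at 97.8 and 95.1 FPKM, also overlapped. Below them lay TUBB2B at 43.3, TUBB3 at 23.5 and TUBA4A at 5.79 FPKM, each separated from the next.

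The summed tubulin mRNA was several times lower in CiADCs than in BEFs, without a test since it is a sum over chosen genes. The FPKM of the 10 genes summed to 4957, 4842 and 4645 in BEFs, to 881, 1008 and 1038 on day 3 and to 1033, 678 and 806 on day 6. No CiADCs sample came near a BEFs sample, while the days of induction overlapped each other. The mean sum was 4.93 times higher in BEFs than on day 3 and 5.74 times higher than on day 6. The 10 genes made up 1.10% of the FPKM of all genes in BEFs, 0.215% on day 3 and 0.181% on day 6. TUBA1B and TUBB together accounted for 71.8% of the loss to day 3 and 71.7% of the loss to day 6. They already held 40.8% and 27.3% of the summed FPKM in BEFs, so most of this part follows from their starting levels. In bulk samples such as these, fewer cells with much tubulin mRNA and less tubulin mRNA per cell cannot be told apart.

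**Figure D1:**
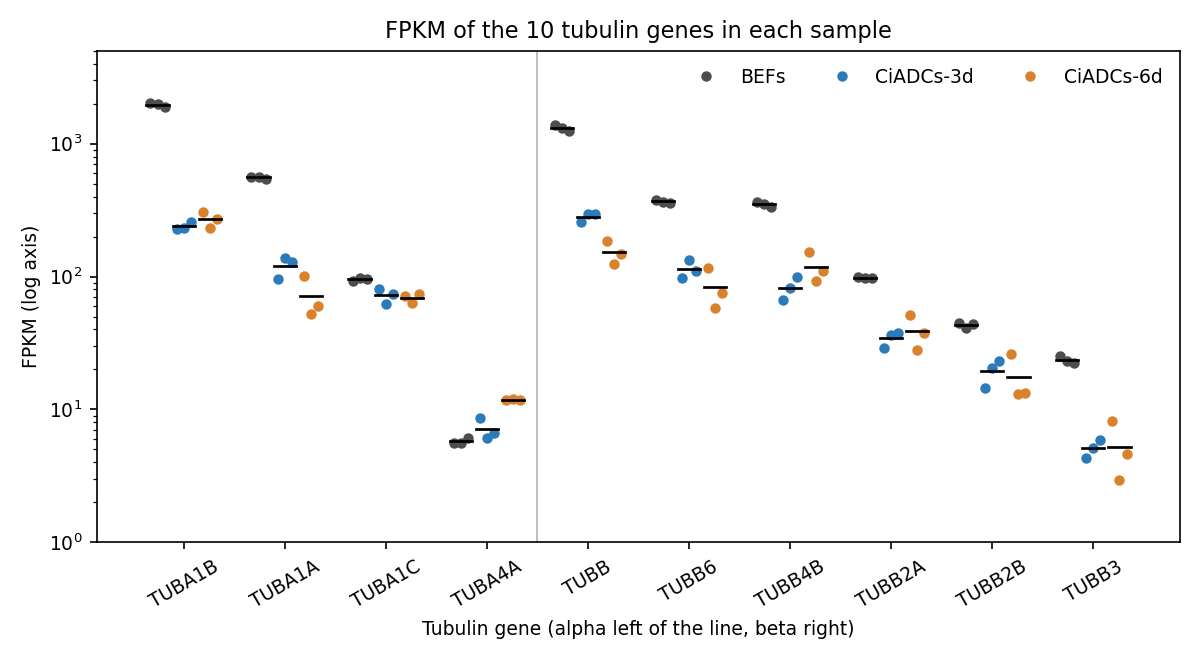
FPKM of the 10 tubulin genes (log axis) in each of the 9 samples, with points for samples, short black lines for group means, and alpha genes left and beta genes right of the grey line. TUBA1B fell from between 1893 and 2011 FPKM in BEFs to between 228 and 257 in CiADCs-3d, whereas TUBA4A was higher in CiADCs-6d, at 11.75 to 11.92, than in BEFs, at 5.60 to 6.14.

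In the plot of FPKM by sample the genes that were high in BEFs lost most FPKM. Of the 10 tubulins, all of which passed the filter on low counts, 9 were lower and 0 were higher on day 3 than on day 0 at an adjusted p under 0.05 in edgeR, and 8 of the 9 were lower by at least 2-fold. Over all 14020 genes tested, 29.1% were lower and 30.9% were higher. In CiADCs-6d, 9 tubulins were lower and 1 was higher than in BEFs, against 31.9% of all genes lower and 35.6% higher. The 10 genes had a median log2 fold change of -1.90 against BEFs on each day, beside 0.01 and 0.03 over all genes tested. Both comparisons use the same BEFs samples.

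Among the alpha tubulins, TUBA1B (539882) stood at 2011, 1983 and 1893 FPKM in BEFs, at 228, 230.2 and 257 on day 3 and at 308, 232 and 273 on day 6. All 6 CiADCs samples lay far below the BEFs, and the days overlapped. Against the BEFs its fitted difference was -3.06 on the log2 scale after 3 days (SE 0.13, adjusted p = 1.64e-09) and -2.89 after 6 days (SE 0.13, adjusted p = 1.91e-09), a level 8.34-fold and 7.42-fold lower. TUBA1A (404053) had 565, 563 and 540.3 FPKM in BEFs, 95.2, 138 and 129.6 on day 3 and 101, 52.0 and 59.8 on day 6. Again no CiADCs sample reached the BEFs. For TUBA1A the log2 fold changes were -2.22 to day 3 (SE 0.22, adjusted p = 3.56e-06) and -3.01 to day 6 (SE 0.23, adjusted p = 2.49e-07).

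TUBA1C, which RefSeq places beside TUBA1A and TUBA1B in the same cluster of alpha tubulin genes, kept most of its level. TUBA1C (504244) measured 93.0, 96.85 and 95.4 FPKM in BEFs, 79.98, 62.2 and 74.2 on day 3 and 71.3, 62.9 and 74.2 on day 6. The CiADCs samples were all below the BEFs and overlapped each other. It was lower by a log2 fold change of -0.42 after 3 days (SE 0.11, adjusted p = 0.00603) and of -0.48 after 6 days (SE 0.11, adjusted p = 0.0019). In FPKM, 75.9% of the BEFs mean was left on day 3 and 73.0% on day 6, beside 12.2% and 13.8% for TUBA1B.

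TUBA4A, whose gene encodes an alpha tubulin that already lacks the final tyrosine, was the member of the 10 with a higher mean on both days than in BEFs. TUBA4A (777775) had 5.64, 5.60 and 6.14 FPKM in BEFs, 8.60, 6.12 and 6.61 on day 3 and 11.86, 11.92 and 11.75 on day 6. The day 6 samples lay close together above all others, and on day 3 replicate 2 was within the BEFs range. Its log2 fold change was 0.27 on day 3 (SE 0.14, adjusted p = 0.122), which did not pass, and 0.99 on day 6 (SE 0.14, adjusted p = 5.67e-05), 1.99-fold higher. TUBA4A remained a minor isotype, with 181 to 207 counts per library in BEFs and 322 to 372 in CiADCs-6d.

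Among the beta tubulins, TUBB had 1372, 1313 and 1254 FPKM in BEFs, 257, 295 and 295 on day 3 and 186, 125 and 148 on day 6. The groups formed separate steps with no overlap. Relative to BEFs, TUBB changed by -2.24 on the log2 scale after 3 days (SE 0.14, adjusted p = 7.28e-08) and by -3.14 after 6 days (SE 0.15, adjusted p = 4.24e-09), when it was 8.80-fold lower than in BEFs. TUBB4B (539149), a beta tubulin of many cell types that is also abundant in cilia, had 362.5, 352 and 332 FPKM in BEFs, 66.9, 82.4 and 98.9 on day 3 and 154, 92.9 and 109 on day 6. It was well below the BEFs on both days, with overlap between the days. Its log2 fold changes were -2.09 (SE 0.19, adjusted p = 1.31e-06) on day 3 and -1.60 (SE 0.18, adjusted p = 9.26e-06) on day 6.

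TUBB6 (534206), a divergent beta tubulin found at low level in most tissues, gave whole counts throughout. It stood at 379.9, 365 and 360.4 FPKM in BEFs, at 97.5, 133 and 110.3 on day 3 and at 116, 57.9 and 74.85 on day 6. All CiADCs samples were below the BEFs. The log2 fold change was -1.72 on day 3 (SE 0.21, adjusted p = 2.14e-05) and -2.19 on day 6 (SE 0.22, adjusted p = 2.34e-06).

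TUBB2A and TUBB2B are neighbouring genes for nearly identical beta tubulins that are abundant in brain. TUBB2A (100295973) had 98.4, 98.1 and 96.8 FPKM in BEFs, 29.2, 36.05 and 37.6 on day 3 and 51.2, 27.8 and 37.3 on day 6. TUBB2B (281555) had 44.5, 41.4 and 44.2 FPKM in BEFs, 14.5, 20.4 and 23.1 on day 3 and 26.04, 13.04 and 13.2 on day 6. Both genes lay below the BEFs in every CiADCs sample, with CiADCs-6d replicate 1 the highest of the CiADCs samples for each. TUBB2A had log2 fold changes of -1.53 and -1.37 on days 3 and 6 (SE 0.19 and 0.18, adjusted p = 1.85e-05 and 3.43e-05). TUBB2B had -1.18 and -1.35 (SE 0.24 on both days, adjusted p = 0.00117 and 0.000367).

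TUBB3, the beta tubulin used as a marker of neurons, was the lowest of the 6 beta genes in every group. TUBB3 (768070) measured 25.1, 23.1 and 22.2 FPKM in BEFs, 4.30, 5.12 and 5.85 on day 3 and 8.22, 2.96 and 4.6 on day 6. No CiADCs sample overlapped the BEFs, and the day 6 samples spread around those of day 3. Its log2 fold change was -2.22 on day 3 (SE 0.28, adjusted p = 2.28e-05) and -2.19 on day 6 (SE 0.28, adjusted p = 1.95e-05). Of 14 neuronal marker genes, 7 passed the filter on low counts. On day 3, 4 of the 7 were higher and 1 was lower than in BEFs, and on day 6, 5 were higher and 1 was lower. Across all genes tested 30.9% were higher and 29.1% lower on day 3, and 35.6% and 31.9% on day 6. DCX, a microtubule-binding protein of young neurons, rose 6.04-fold to day 3 and 3.31-fold to day 6, and MAP2, the main dendritic microtubule protein, was 3.74-fold and 4.97-fold lower. The summed level of the 14 genes was 27.0 to 30.1 CPM in BEFs, 70.1 to 78.0 on day 3 and 54.4 to 83.4 on day 6. DCX and NEFH, another of the 14, together made up most of this sum in CiADCs. On days 0, 3 and 6 DCX had means of 8.25, 49.8 and 27.3 CPM and NEFH of 6.77, 10.7 and 25.1. NEFM, ELAVL4, STMN2 and GAP43, further neuronal genes, had no count in any sample.

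**Figure D2:**
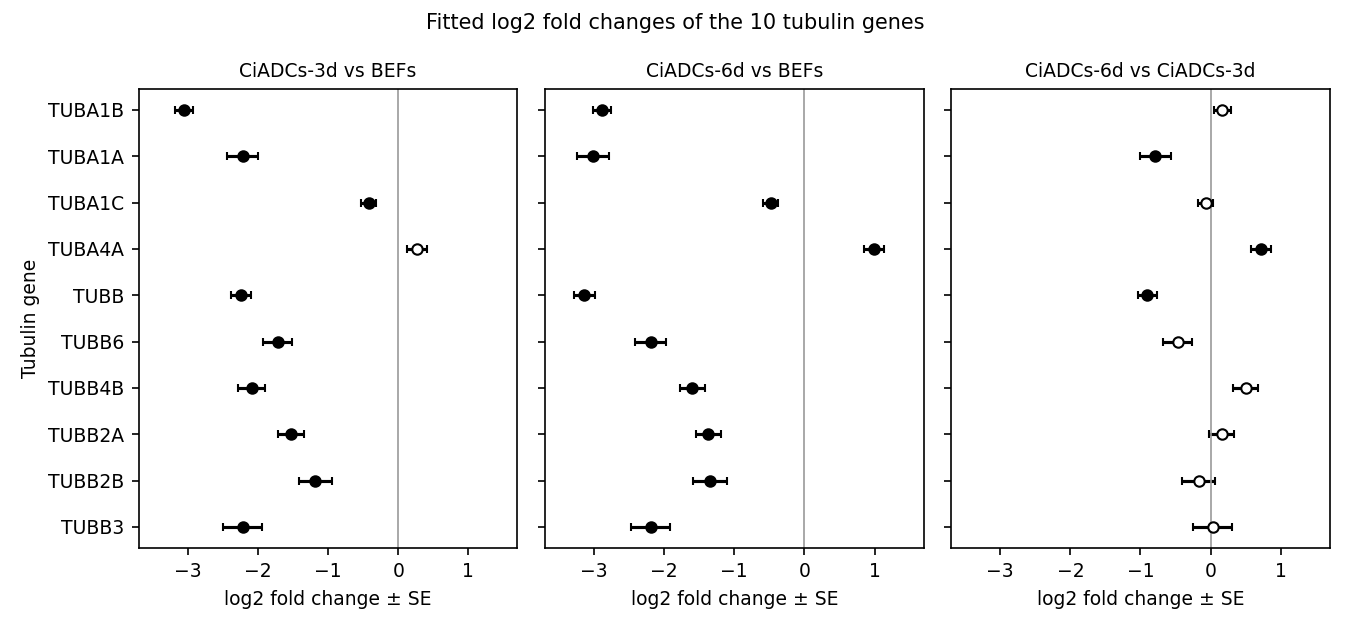
Fitted log2 fold changes of the 10 tubulin genes in the 3 comparisons (edgeR, bars are SE, filled points are called at an adjusted p under 0.05). Against BEFs 9 genes lay left of 0 and filled on both days, and between the days only TUBA1A, TUBB and TUBA4A were filled.

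Between day 3 and day 6 fewer tubulins were called than against BEFs. Of the 10 genes, 2 were lower and 1 was higher in CiADCs-6d than in CiADCs-3d and 7 did not pass, against 13.6% lower and 14.4% higher over all genes tested. TUBB fell further, with a log2 fold change of -0.90 (SE 0.14, adjusted p = 0.00108) and no overlap between the days. TUBA4A rose by 0.72 on the log2 scale (SE 0.14, adjusted p = 0.00365), also without overlap. For TUBA1A the log2 fold change was -0.79 (SE 0.22, adjusted p = 0.0184), but the samples of the days overlapped, since CiADCs-3d replicate 1 had less TUBA1A than CiADCs-6d replicate 1. This call was lost when replicate 2 or replicate 3 of either day was left out, with log2 fold changes of -0.63 to -0.74 and adjusted p between 0.06 and 0.0851. TUBB4B had a log2 fold change of 0.50 (SE 0.18, adjusted p = 0.0586), opposite in sign to that of TUBB, and over the alternatives it ranged from 0.08 to 0.65 with adjusted p up to 0.581. It passed the threshold without CiADCs-3d replicate 3 (adjusted p = 0.0469) or CiADCs-6d replicate 2 (adjusted p = 0.0296).

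The samples numbered 1 bore on these counts. Without both of them 6 tubulins were called between the days in place of 3, and without CiADCs-6d replicate 1 alone 5 were. TUBB6 then had a log2 fold change of -0.94 (adjusted p = 4.84e-05 without both) in place of -0.47 (adjusted p = 0.11). TUBB2B had -0.80 (adjusted p = 3.4e-05) in place of -0.17 (adjusted p = 0.634). TUBB4B had 0.08 (adjusted p = 0.581) without both. TUBB3 turned from 0.03 (adjusted p = 0.949) to -0.62 (adjusted p = 0.0133). The calls for TUBB, TUBA4A and TUBA1A were kept without both samples. For 8 tubulins the day 3 sample left out was the lowest of its group, and for 8 the day 6 sample was the highest. Leaving out both therefore lowers day 6 relative to day 3, and the median log2 fold change of the 10 genes moved from -0.02 to -0.44. The p-values without both samples are thus no independent support for a fall.

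The isotypes made up different parts of the tubulin mRNA in the 3 groups. The share of each gene in the summed FPKM of the 10 is given without a test. TUBA1B held 40.6%, 41.0% and 40.8% of the pool in BEFs, 25.9%, 22.8% and 24.7% on day 3 and 29.8%, 34.3% and 33.9% on day 6. Its share was thus lowest on day 3 and in between on day 6, with no overlap among the groups. TUBB held 27.7%, 27.1% and 27.0% in BEFs, 29.1%, 29.3% and 28.4% on day 3 and 18.0%, 18.4% and 18.4% on day 6. TUBB was thus the leading isotype by mean on day 3, where it overlapped TUBA1B in FPKM, and came after TUBA1B on day 6.

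**Figure D3:**
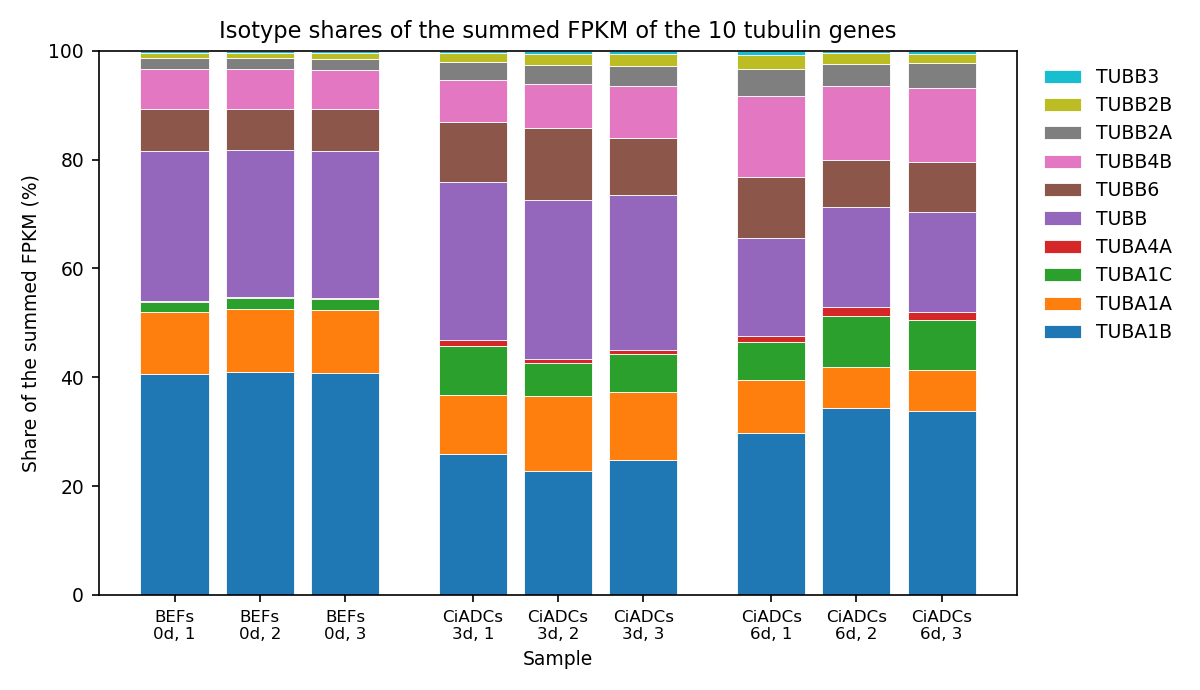
Share of each tubulin gene in the summed FPKM of the 10 genes (stacked to 100%) in each of the 9 samples, labelled by group, day and replicate number. TUBA1B spans 40.6% to 41.0% in BEFs and 22.8% to 25.9% in CiADCs-3d, TUBA1C has means of 1.98% and 7.47% in these groups, and TUBB4B has means of 8.43% in CiADCs-3d and 14.0% in CiADCs-6d.

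The plot of isotype shares shows which genes had larger parts in CiADCs. TUBA1C held 1.98% ± 0.0908 (SD, n = 3) of the pool in BEFs, 7.47% ± 1.48 on day 3 and 8.46% ± 1.35 on day 6, although its own FPKM fell. TUBB4B held 7.24% ± 0.0897 in BEFs, 8.43% ± 0.993 on day 3 and 14.0% ± 0.724 on day 6, and moved from the fifth to the third place. TUBB6 had its largest share on day 3, 11.6% ± 1.37, against 7.65% ± 0.110 in BEFs and 9.69% ± 1.41 on day 6. These differences exceeded the spread between samples, except that TUBA1C and TUBB6 overlapped between the days.

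The smaller isotypes mostly had larger shares too. TUBB2A held 2.03%, 3.51% and 4.56% of the pool on days 0, 3 and 6, and TUBB2B held 0.901%, 1.96% and 2.03%. TUBA4A held 0.121%, 0.740% and 1.45%, each group apart from the others. TUBB3 had overlapping shares, 0.488% ± 0.0164 in BEFs, 0.520% ± 0.0392 on day 3 and 0.601% ± 0.182 on day 6. TUBA1A held 11.6% in BEFs and 12.3% in CiADCs-3d, which overlapped, and 8.28% in CiADCs-6d, below both.

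Within each class the leading gene kept its place with a smaller share in CiADCs. TUBA1B made up 74.9% ± 0.249 of the alpha FPKM in BEFs, 54.4% ± 1.41 on day 3 and 64.2% ± 1.38 on day 6. TUBB made up 59.8% ± 0.328 of the beta FPKM in BEFs, 52.7% ± 1.77 on day 3 and 37.2% ± 2.52 on day 6. The sum of the alpha genes divided by that of the beta genes was 1.17, 1.21 and 1.20 in BEFs, 0.879, 0.763 and 0.818 on day 3 and 0.908, 1.13 and 1.08 on day 6. Alpha mRNA thus exceeded beta mRNA in BEFs and was below it in each CiADCs-3d sample, while the CiADCs-6d samples lay on both sides.

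Ratios between related isotypes, which do not depend on the scaling of the library, varied between the groups as well. TUBB4B relative to TUBB was 0.264, 0.268 and 0.264 in BEFs, 0.261, 0.279 and 0.335 on day 3 and 0.827, 0.745 and 0.739 on day 6. The day 6 samples were far above all the others, and the day 3 samples overlapped the BEFs. TUBA1C relative to TUBA1B was 0.0463, 0.0488 and 0.0504 in BEFs, 0.350, 0.270 and 0.289 on day 3 and 0.232, 0.271 and 0.272 on day 6. The samples of both days lay above the BEFs and overlapped each other. TUBA1A relative to TUBA1B was highest on day 3, with means of 0.284 ± 0.00216 in BEFs, 0.507 ± 0.0907 on day 3 and 0.257 ± 0.0611 on day 6. TUBB6 relative to TUBB was 0.281 ± 0.00567, 0.401 ± 0.0427 and 0.532 ± 0.0837 on days 0, 3 and 6, without overlap.

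**Figure D4:**
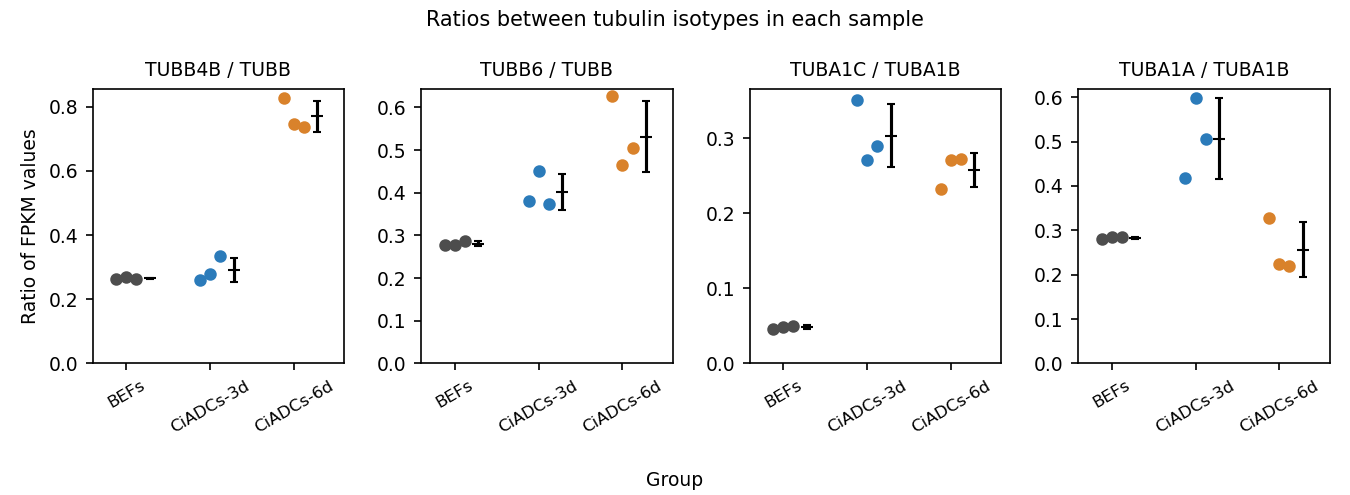
Ratios of FPKM between pairs of tubulin genes in each sample, with the mean ± SD of the 3 samples of a group to the right of its points. TUBB4B over TUBB was between 0.739 and 0.827 in CiADCs-6d and at most 0.335 elsewhere, and TUBA1C over TUBA1B was at or below 0.0504 in BEFs and at least 0.232 in every CiADCs sample.

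In CiADCs-3d the order of the genes by FPKM was TUBB, TUBA1B, TUBA1A, TUBB6, TUBB4B, TUBA1C, TUBB2A, TUBB2B, TUBA4A and TUBB3. TUBB and TUBA1B overlapped each other, and each neighbouring pair from TUBA1A to TUBA1C did too. In CiADCs-6d the order was TUBA1B, TUBB, TUBB4B, TUBB6, TUBA1A, TUBA1C, TUBB2A, TUBB2B, TUBA4A and TUBB3, with overlap between each neighbouring pair from TUBB to TUBA1C. In both CiADCs groups TUBA4A stood above TUBB3 without overlap, the reverse of their order in BEFs. TUBA1B ranked 271 among all genes on day 3 and 250 on day 6.

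The 6 further rows under a member's symbol were mostly low. LOC100141266, a row named TUBA1C that RefSeq places near that gene with another gene between them, was the exception, with 75.5 ± 2.67 FPKM in BEFs, 51.3 ± 11.9 on day 3 and 70.5 ± 3.77 on day 6. It was thus of the same order as TUBA1C itself. LOC533307, listed as tubb, had 13.1 ± 2.46, 2.87 ± 0.565 and 1.16 ± 0.0982 FPKM. LOC112443216 had between 2.90 and 4.85 FPKM in all samples. The other 3 stayed below 1 FPKM in every sample. With all 23 alpha and beta tubulin rows of the table in place of the 10 genes, the mean sums were 4918, 1049 and 929 FPKM on days 0, 3 and 6.

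Of the other tubulins 9 were tested, of which 2 were higher and 3 lower on both days. For all genes tested the shares were 30.9% higher and 29.1% lower on day 3, and 35.6% and 31.9% on day 6. TUBB4A, a beta tubulin of brain, was higher by 0.59 on the log2 scale on day 3 (adjusted p = 0.00543) and by 0.39 on day 6 (adjusted p = 0.041), from 7.53 ± 0.0950 FPKM in BEFs to 11.4 ± 1.98 and 10.1 ± 1.32. TUBAL3, an alpha-like tubulin, was called higher from at most 3 counts per library in BEFs and at most 31 in CiADCs, too few for its fold to be read. The gamma tubulins TUBG1 and TUBG2, which start new microtubules at the centrosome, were lower, with log2 fold changes of -0.79 and -1.09 on day 3 and of -0.71 and -1.03 on day 6. TUBD1, the delta tubulin of centrioles, was also lower, with -0.78 and -0.82, and TUBE1, the epsilon tubulin, had -0.06 and 0.05 and did not pass. TUBA8, TUBA3E and TUBB1 did not pass on either day, and TUBA1D, with at most 10.1 counts per library, was too low to be tested.

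Of the genes for the folding of tubulin, those of the chaperonin CCT were lower throughout, where 29.1% and 31.9% of all genes tested were lower on days 3 and 6. All 8 listed genes of CCT, which folds actin and tubulin, were lower on both days, with medians of -0.92 and -1.34 on the log2 scale. CCT7 was 2.13-fold and 3.64-fold lower. Of 8 tubulin folding cofactors, 4 were lower and 1 was higher on day 3, and 5 were lower and 0 higher on day 6. Among them TBCB, which acts on alpha tubulin, was 1.67-fold and 2.61-fold lower, and ARL2, the GTPase that works with the cofactors, was 1.73-fold and 2.63-fold lower. Of the 6 subunits of prefoldin, which hands new chains to CCT, 2 were lower on day 3 and 3 were lower and 1 higher on day 6, nearer to the share of all genes, with medians of -0.44 and -0.20.

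Of 5 genes for the factors that degrade tubulin mRNA when free dimers are in surplus, 4 were lower and 0 higher on both days. Among all genes tested 29.1% were lower on day 3 and 31.9% on day 6. TTC5, which recognises the new tubulin chain at the ribosome, was 1.61-fold lower on day 3 and 2.44-fold lower on day 6. SCAPER, the adaptor between TTC5 and the CCR4-NOT deadenylase, was lower, with log2 fold changes of -0.58 and -0.51 (adjusted p = 0.000785 and 0.00157).

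Of 18 tested genes for the modification of tubulin, 3 were higher and 6 lower on day 3, and 2 were higher and 6 lower on day 6. Over all genes tested 30.9% were higher and 29.1% lower on day 3, and 35.6% and 31.9% on day 6, so the share lower was near that of all genes and the share higher was below it. AGBL5, which removes branch-point glutamates from tubulin, rose 1.76-fold and 2.48-fold, and VASH1, an enzyme that removes the final tyrosine of alpha tubulin, rose 1.41-fold and 1.40-fold. SVBP, the partner that VASH1 needs, was 1.87-fold lower on day 3, with log2 fold changes of -0.90 on that day (adjusted p = 0.000121) and -0.84 on day 6 (adjusted p = 0.000172). TTL, which puts the tyrosine back, had log2 fold changes of -0.19 and -0.15 that did not pass. TTLL1, a glutamylase, was 2.03-fold lower on day 6.

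Genes for proteins that bind microtubules also divided. Of 25 stabilisers and plus-end proteins, 7 were higher and 12 lower on day 3, and 6 were higher and 14 lower on day 6. Beside this, 30.9% of all genes tested were higher and 29.1% lower on day 3, and 35.6% and 31.9% on day 6. MAPRE2, a plus-end protein, rose 3.38-fold and 4.06-fold, whereas MAP1A was 2.13-fold lower on day 3 and EML4 4.19-fold lower on day 6. Of 10 destabilisers and severing enzymes, 8 were lower and 1 higher on day 3, and 7 were lower and 1 higher on day 6. STMN1, which binds free tubulin dimers, was lower, with log2 fold changes of -2.61 and -3.33 (adjusted p = 8.3e-08 and 1.13e-08). KIF18B and KIF2C, motors that shorten microtubules in mitosis, were 21.8-fold and 17.6-fold lower on day 3.

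Of 17 genes for nucleation by gamma tubulin, TUBG1 and TUBG2 included, 13 were lower and 1 higher on day 3, and 12 were lower and 2 higher on day 6. All genes tested had 29.1% lower and 30.9% higher on day 3, and 31.9% and 35.6% on day 6. PCNT, a scaffold of the centrosome, was 3.83-fold and 4.24-fold lower. Of 26 motor genes of interphase, 4 were higher and 13 lower on day 3, and 5 were higher and 13 lower on day 6. DYNC1I1, an intermediate chain of dynein best known from neurons, rose 36.8-fold to 13.8 ± 1.699 CPM on day 3 and 50.5-fold to 18.8 ± 1.55 CPM on day 6, and DYNC1I2, the widespread chain, was 1.84-fold lower on day 3. Genes of the mitotic spindle, of which KIF2C also stands in the list of destabilisers, were lower by more. All 26 of them were lower on day 3 and 25 of 26 on day 6, with median log2 fold changes of -3.62 and -4.74.

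**Figure D5:**
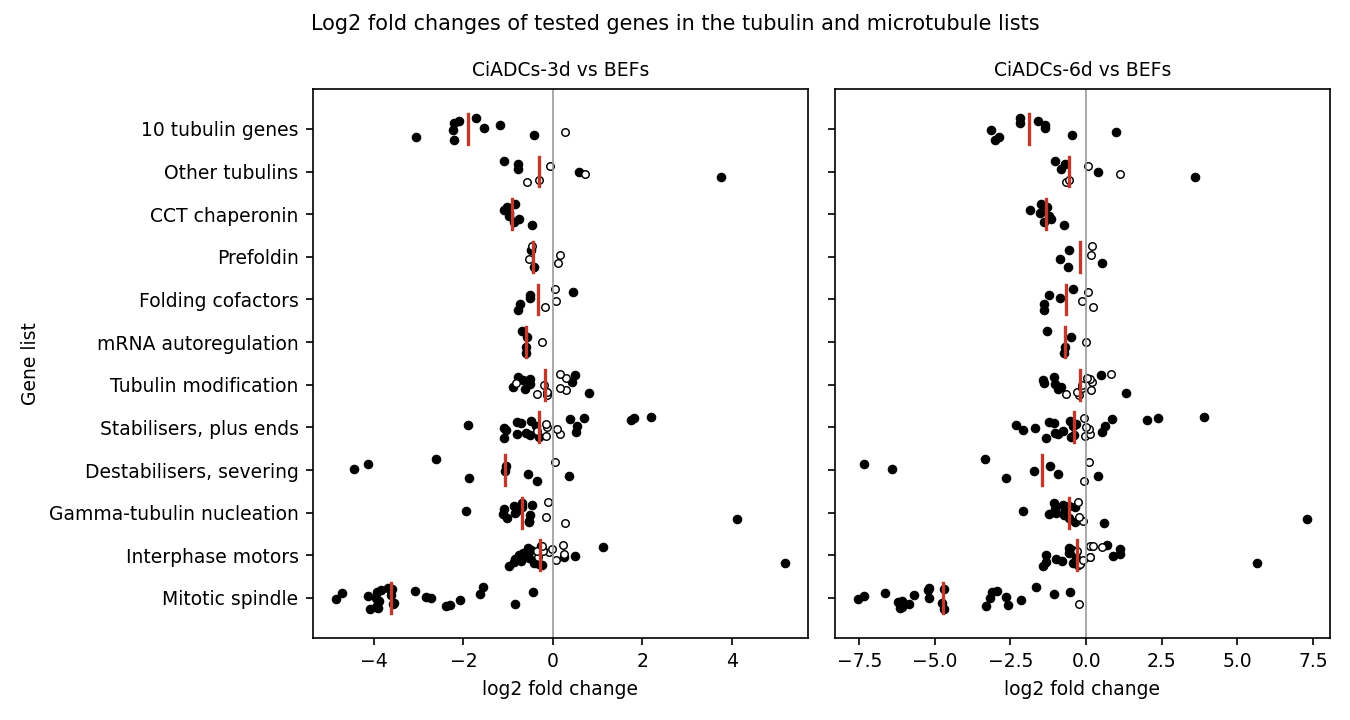
Log2 fold changes against BEFs (x axis) of the tested genes in lists related to tubulin (rows), on day 3 and day 6, with filled points for genes called at an adjusted p under 0.05 and red lines for list medians. The medians of the 10 tubulin genes (-1.90 on both days) lay between those of CCT (-0.92 and -1.34) and of the mitotic spindle (-3.62 and -4.74), and the far right points of the nucleation list are CAMSAP3, which had no count in BEFs.

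The lists in the plot of log2 fold changes by list changed in the same comparisons, and their part in the fall of tubulin mRNA was not tested. The summed level of the 26 spindle genes was 2965 to 3295 CPM in BEFs, 475 to 648 on day 3 and 483 to 518 on day 6. For the marker counts that follow, the shares of all genes tested were 30.9% higher and 29.1% lower on day 3, and 35.6% and 31.9% on day 6. The 11 fibroblast markers divided into 3 higher and 5 lower on day 3, and 0 were higher and 7 lower on day 6. Their summed levels were 63530 to 65970 CPM in BEFs, 25650 to 37310 on day 3 and 17390 to 22950 on day 6. Of 10 adipocyte markers tested, 4 were higher and 2 lower on day 3, and 5 were higher and 2 lower on day 6. They were low throughout, with sums of the 11 listed markers between 32.2 and 64.6 CPM. LPL was 5.18-fold and PPARG 3.21-fold higher on day 3, and CFD was 2.80-fold higher on day 6. FABP4 was 2.05-fold lower on day 3 and 12.5-fold lower on day 6. ADIPOQ, the adipokine that defines adipocytes, had means of 1.15, 4.86 and 3.97 CPM on days 0, 3 and 6. PLIN1, the coat protein of their lipid droplets, had 4.71, 3.66 and 3.56 CPM. Among markers of other cells, the endothelial sum moved with the groups, at 12.3 to 18.2 CPM in BEFs, 311 to 461 on day 3 and 195 to 320 on day 6. VWF made up nearly all of it in CiADCs, with means of 367 and 245 CPM against 7.75 in BEFs, while CDH5, PECAM1, TEK and KDR had group means of at most 4.63 CPM. Among 3 tested endothelial markers, 2 were higher and 0 lower on day 3, and 1 was higher and 1 lower on day 6. The sums for muscle were 83.6 to 89.9 CPM in BEFs and 23.1 to 65.9 in CiADCs, mostly CNN1, and MYOD1 and MYOG had no count. Among 5 tested muscle markers, 2 were higher and 2 lower on each day. The epithelial sum was 65.4 to 90.4 CPM in BEFs and 91.0 to 119 in CiADCs, mostly CDH1 and KRT5. These moved in opposite directions on day 3, when CDH1 was 3.04-fold higher and KRT5 2.05-fold lower than in BEFs. The 4 tested epithelial markers divided into 1 higher and 3 lower on day 3, and 1 was higher and 1 lower on day 6. Blood markers summed to between 0.746 and 1.34 CPM in BEFs and between 3.35 and 11.3 in CiADCs, with PTPRC at 0 throughout. Among 3 tested blood markers, 2 were higher and 0 lower on each day. Schwann and melanocyte markers summed to between 18.2 and 18.9 CPM in BEFs and between 29.7 and 39.7 in CiADCs, with TYR at 0.

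The genes whose log2 CPM followed a tubulin most closely are given as a description over the 9 samples, which share their 3 groups, so the coefficients include the step from BEFs to CiADCs. For TUBA1B these were LMNA, the lamin A gene, PHF19, FEN1, DTYMK and TRIP13, with Pearson's r from 0.996 to 0.997. For TUBB they were MYH9, non-muscle myosin, MTHFD1, PGK1, MAP7D1 and WDR46, from 0.997 to 0.998. For TUBB3 they were HSD3B7, PSMC4, NUDT1, KAT2A and EFEMP2, from 0.992 to 0.995.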

How the data were processed

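The deposited table gives expected counts (estimated reads per gene, not normalized) and FPKM values that the authors had scaled to gene length and library size. The submitters' processing notes list RSEM, HISAT2 2.2.4, StringTie 1.3.1 and fastp 0.18.0, whereas the study's methods name TopHat and HTSeq, and the genome build is not given in the sources used here. The labels name a Ribo-Zero kit and the methods oligo(dT) enrichment. Reads shared by similar tubulin genes can move between isotypes with the counting method.

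Counts were rounded, filtered by filterByExpr (minimum count 10, minimum total 15), scaled by TMM and fitted to all 9 samples with the quasi-likelihood test of edgeR 4.0.16 in R 4.3.3 with group as the only term. The threshold was a Benjamini-Hochberg adjusted p under 0.05 over 14020 genes. The script was tested on simulated data. Gene symbols were matched by NCBI Gene ID to RefSeq (ARS-UCD2.0), which matched 20582 of 21039 identifiers. Sums, shares and ratios of FPKM (Python 3.11.15) have no test. Protein and promoter sequences were not analysed here.

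The 10 genes and all lists were chosen with earlier results of these data known. All 10 genes and every gene found of the list of other tubulins are named. From each other list up to 2 highest and 2 lowest called genes with at least 10 CPM were eligible. SCAPER, TTL, STMN1, CAMSAP3, ADIPOQ, PLIN1, PECAM1, CDH5, TEK, KDR, PMEL and the markers given at or near 0 were picked after their values were seen. Alternatives were DESeq2 1.42.0, limma 3.58.1 on log2(FPKM + 1) and log2(FPKM + 0.1), other scalings, filters and thresholds, fits of fewer samples and a replicate block.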

Additional observations from a re-analysis of the deposited data

Results flagged for a closer look

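The responses of 3 tubulin genes differed between the days of induction by the test of the difference itself, as fold changes of CiADCs-6d against CiADCs-3d in edgeR. TUBB was lower on day 6, with a log2 fold change of -0.90 (adjusted p = 0.00108). TUBA4A was higher, with 0.72 (adjusted p = 0.00365). TUBA1A was lower, with -0.79 (adjusted p = 0.0184), although its samples overlapped and the call was lost when replicate 2 or replicate 3 of either day was left out. Over all genes tested 13.6% were lower and 14.4% higher between the days, so 3 of 10 called was near the share of all genes. No group was large enough to test for samples far from the others.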

How the results depend on the processing

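Of 600 log2 fold changes of the 10 tubulins recomputed under alternatives, 588 kept their side of the threshold. Those called in both the main fit and the alternative kept their direction. Values between the days that did not pass could change sign, as for TUBA1B (-0.02 to 0.25) and TUBB2A (-0.25 to 0.33). Against BEFs 9 and 10 tubulins were called on days 3 and 6 under each alternative run, except that 8 and 8 were called where a log2 fold change of at least 1 was also required. The other 12 values were all between the days. TUBB3 turned to -0.62 (adjusted p = 0.0133) without the CiADCs samples numbered 1, and TUBB4B passed with 0.52 (adjusted p = 0.0487) under total-count scaling. Between the days 3 tubulins were called, 2 to 5 with a sample left out, 6 without both samples numbered 1 and 0 at a log2 fold change of at least 1. With that fold threshold 3945, 4949 and 1025 genes were called in the 3 comparisons in place of 8412, 9460 and 3923. Between the days 2543 genes were called with only the 2 groups compared, 6914 without both samples numbered 1 and 2085 to 5377 with a sample left out, lowest without CiADCs-6d replicate 3 and highest without CiADCs-6d replicate 1, with 2277 without CiADCs-3d replicate 3. With a sample left out, the mean summed FPKM was 4743 to 4899, 945 to 1023 and 742 to 919 on days 0, 3 and 6. By the symbols printed in the table, an alternative chosen after seeing the data, it was 3593, 751 and 762. As CPM, a different unit not per length, the sums were 8366, 1653 and 1394. With all tubulin rows 12 of 30 shares moved by more than 1 SD, and with CPM 12 of 30 did. A mean over 2 of the same 3 samples cannot move by 1 SD, so leaving samples out does not test the shares.

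Samples with the same replicate number did not deviate together from their group means, with correlations from -0.372 to 0.145. Deviations from a mean of 3 samples depend on each other, so this does not decide whether the numbers pair samples. With the number as a replicate block the tubulins called were 9, 10 and 3, and genes called were 7963, 9113 and 3110. Low counts limit TUBAL3 and the 7 neuronal markers not tested, and shared reads limit the split among 8 of the 10 tubulins.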
